A study of Homo sapiens with 12 samples.

Results

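The data compared INZ with its vehicle DMSO in HCT116 p53-/- cells, so that any change in RNA level took place without active p53. HCT116 is a line from a human colon carcinoma, and its p53-/- derivative lacks functional p53 in INZ-treated and control cells alike. INZ (inauhzin) is a small molecule described as a p53 activator. The comparison was chosen by label: 3 arrays of p53-/- cells given 4 μM INZ for 18 hours and 3 arrays of p53-/- cells given DMSO, 6 of the 12 arrays in the series, with all 45033 features of the array. The other 6 arrays, INZ and DMSO in p53+/+ cells, are used to estimate the spread and to set each change beside its value with p53 present. Whether the p53-/- line is 1 clone is not given in the sources used here, and the labels mark the 3 arrays per group as biological replicates without naming separate cultures, so p-values measure the spread between these samples only.

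p53 is a transcription factor that, once stabilised, switches on genes for cell cycle arrest, DNA repair and apoptosis. In cells without p53 a compound can still act through other stress pathways. ATF4, for example, is a transcription factor made when the kinases of the integrated stress response slow translation, and it raises genes that make, import and charge amino acids. The aryl hydrocarbon receptor is a ligand-activated transcription factor that raises CYP1 genes when it binds planar foreign compounds. INZ has been described as acting on the deacetylase SIRT1 and on IMPDH2, an enzyme of guanine nucleotide synthesis.

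The promoters of 3 genes are shown because the results turn on these genes and they serve as textbook targets of these pathways. The sequences are from RefSeq, build GRCh38.p14, each a stretch of 100 bases upstream of or around the gene start, on the gene's own strand. Capitals mark TGATGNAA, the C/EBP-ATF response element through which ATF4 acts, in ASNS and CHAC1, and GCGTG, the core that the aryl hydrocarbon receptor binds, in CYP1A1. Both strands were searched over the 250 bases before the start, and GCGTG is also the core of the longer TNGCGTG.
ASNS, chr7:97872423-97872522, minus strand: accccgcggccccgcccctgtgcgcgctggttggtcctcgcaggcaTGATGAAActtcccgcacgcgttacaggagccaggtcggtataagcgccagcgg
CHAC1, chr15:40953221-40953320, plus strand: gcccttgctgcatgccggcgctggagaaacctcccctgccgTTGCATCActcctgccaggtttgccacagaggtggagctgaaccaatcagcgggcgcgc
CYP1A1, chr15:74725532-74725631, minus strand: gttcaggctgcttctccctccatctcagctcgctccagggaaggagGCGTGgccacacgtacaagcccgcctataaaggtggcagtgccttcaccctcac
The element of ASNS began 68 bases before the start, and that of CHAC1, read on the opposite strand, 209 bases before it. The core in CYP1A1 began 57 bases before the start. It was not part of the longer TNGCGTG, which the searched bases of CYP1A1 did not hold. Of 27305 promoters of this length, 3.19% held TGATGNAA, 31.9% held GCGTG and 4.53% held TNGCGTG. Among the ATF4 list described below, 7 genes that fell had a promoter sequence. Only 2 of these 7, ASNS and CHAC1, held TGATGNAA, so the promoters shown are not typical of the genes of that list that fell. These matches describe the letters and do not show that a factor was bound.

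The values are RMA intensities, given here as log2 intensity, in which a step of 1 is a 2-fold step. The median feature lay at 6.41, and features below it are called dim, because the table has no detection calls. The arrays of p53-/- cells correlated at 0.963 to 0.975 within a group and at 0.934 to 0.963 between DMSO and INZ, and the first principal component of the 6 arrays held 45.0% of their variance. The median feature had an SD of 0.31 within either p53-/- group against 0.40 to 0.42 in the p53+/+ groups. The lower quartile of the intensities moved with the treatment, lying between 45.9 and 46.6 with DMSO and between 44.2 and 45.1 with INZ, and its part in the results was not tested. Of 12 epithelial markers 3 were dim, against 7 of 9 markers of mesenchyme, 9 of 10 of leukocytes and 5 of 5 of endothelium. The summed epithelial intensity was 73172 to 79860 with DMSO and 67490 to 81010 with INZ, and that of the leukocyte markers was 547 to 581 with DMSO and 788 to 838 with INZ. Only 4 of the 10 leukocyte markers had a log2 change above 0, with a median of -0.18 and a largest change of 1.88.

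INZ changed the level of 666 features in p53-/- cells, 1.48% of those tested, of which 217 (0.482%) rose and 449 (0.997%) fell (limma, Benjamini-Hochberg adjusted p under 0.05). At an unadjusted p under 0.05 there were 6128. In 25.7% of all features the 3 INZ arrays did not overlap the 3 DMSO arrays, with INZ higher in 13.3% and lower in 12.5%, and all 666 features called were among them. The count depended on which arrays informed the spread. With only the 6 p53-/- arrays, 1679 features rose and 1026 fell, so that rises outnumbered falls, and without p53+/+ DMSO replicate 1 and p53+/+ INZ replicate 3 together, which stand apart from the other p53+/+ arrays, 1442 rose and 1083 fell. All 666 features were also called in each of these fits. Leaving out p53+/+ DMSO replicate 1 alone gave 482 rises and 635 falls, and leaving out p53+/+ INZ replicate 3 alone gave 646 and 667. Leaving out any 1 of the 6 p53-/- arrays left 33 to 61 rises and 196 to 276 falls. The larger number of falls thus holds for the main setting and for each of these single omissions but not for the fits with a smaller spread.

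The features that rose and those that fell differed in where they began. They were chosen by INZ minus DMSO, so their DMSO levels are not independent of that choice, and the contrast is a description. How far the low end of the intensities limits the falls of dim features was not tested. Those that rose went from a median level of 6.22 with DMSO to 8.38 with INZ, and 116 of the 217 had a DMSO mean below the median feature. Those that fell went from 10.02 to 8.21, and only 45 of the 449 ended below the median feature. The median changes were of like size, 1.77 on the log2 scale for the rises (1.09 to 5.88) and -1.76 for the falls (-3.74 to -1.05). Per named gene, with the brightest feature standing for each of 17185 genes, 68 genes rose (0.396%) and 199 fell (1.16%), together 1.55%, and the median over all named genes was -0.03.

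**Figure D1:**
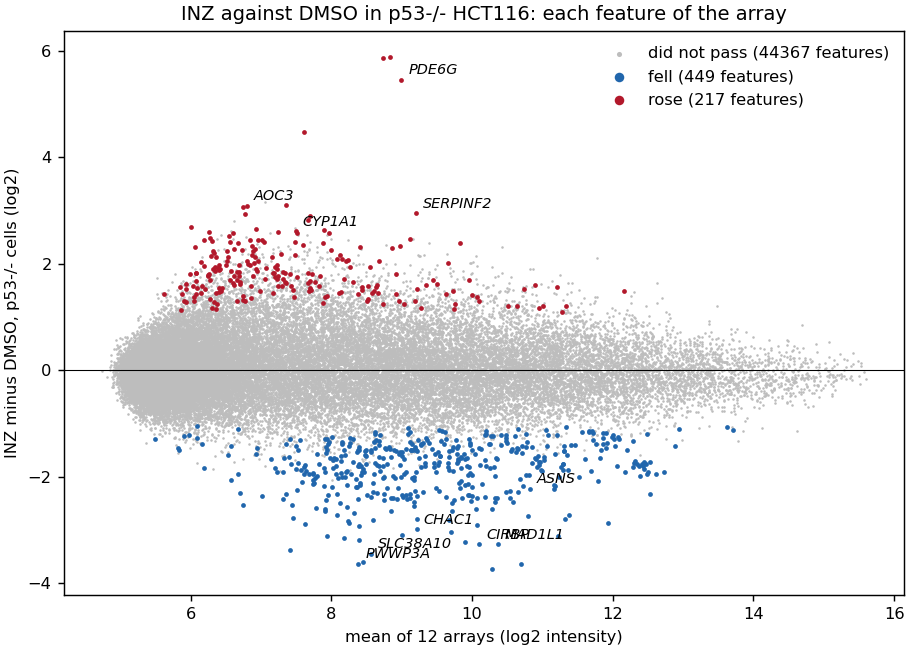
The x axis is the mean log2 intensity over 12 arrays and the y axis the log2 difference between INZ and DMSO in p53-/- cells, with 1 point per feature. The 449 features that fell (blue) lie mostly to the right of the 217 that rose (red), at medians with DMSO of 10.02 and 6.22.

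The largest rise of a named gene was that of PDE6G, the inhibitory subunit of the rod photoreceptor phosphodiesterase. Its values were 5.87, 6.04 and 6.57 with DMSO and 11.71, 11.23 and 11.90 with INZ. The gene went from a dim level to the upper range of the array in all 3 INZ arrays, a log2 change of 5.45 (limma adjusted p = 7.61e-07). The table does not show whether a dim gene was above background, so no fold is given for this gene, and other folds with a dim group are ratios of the intensities as measured. Of the 15 largest rises 7 had a dim mean with DMSO, and of the 15 largest falls 5 had a dim mean with INZ. In p53+/+ cells its log2 change was 4.82. The other 5 subunits of the PDE6 family on the array did not pass the test, and the median of the 6 was -0.21. By their mean over the 12 arrays 4 of the 6 were dim. With dim features filtered, the median of the few left, PDE6G among them, was 2.34, so it does not describe the family. Of the features without a gene name, BX537414 and BC106884 rose by 5.88 and 5.87 on the log2 scale.

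SERPINF2, the gene of the plasmin inhibitor alpha-2-antiplasmin, had values of 7.33, 7.54 and 7.13 with DMSO and 10.20, 9.85 and 10.78 with INZ. This was a 7.69-fold rise (95% interval 4.91 to 12.05, limma adjusted p = 0.000303). In p53+/+ cells the gene already stood at 9.06 to 9.65 with DMSO and at 9.71 to 10.19 with INZ, a log2 change of 0.59 (adjusted p = 0.395), and the difference between the genotypes did not pass the test (adjusted p = 0.126). CYP1A1, a monooxygenase of foreign compounds and the classical target of the aryl hydrocarbon receptor, had values of 6.69, 6.69 and 5.63 with DMSO and 8.83, 8.80 and 9.23 with INZ. It rose 6.12-fold (95% interval 3.49 to 10.8, limma adjusted p = 0.00323), and its log2 change was 2.61 in p53-/- cells beside 2.49 in p53+/+ cells.

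Further rises were held under every alternative tried. WNK4, a kinase that regulates salt transport in the kidney, went from 7.43, 8.07 and 7.95 to 10.61, 10.63 and 9.59, a 5.50-fold rise (limma adjusted p = 0.0063). MTNAP1, a protein associated with mitochondrial nucleoids, rose 5.05-fold and the acid-sensing channel gene ASIC3 rose 5.00-fold (limma adjusted p = 0.00451 and 0.00704). Of the 15 largest rises, these 3 with PDE6G, SERPINF2 and CYP1A1 were the 6 whose call was kept in all 20 alternatives.

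The other 9 of the 15 largest rises were AOC3, FGF11, TAF5, KIF23, DIP2A, SLC16A10, MFHAS1, AIFM2 and ADAMTSL4, at 4.80-fold to 8.52-fold, and each lost its call when 1 or more of the p53-/- arrays was left out. AOC3, a cell-surface amine oxidase, had values of 6.25, 5.48 and 5.69 with DMSO and 8.86, 8.33 and 9.50 with INZ (limma adjusted p = 0.0212). Its call was lost without any of 5 of the 6 p53-/- arrays, all but INZ replicate 2 (adjusted p = 0.0576 to 0.138). TAF5, a subunit of the general transcription factor TFIID, rose 6.17-fold, a call lost only without DMSO replicate 2 (adjusted p = 0.0544). AIFM2, a coenzyme Q reductase that protects cells from ferroptosis, and DIP2A lost their calls whichever of the 6 arrays was left out (adjusted p = 0.0561 to 0.181 and 0.0761 to 0.207). For FGF11 this held without DMSO replicate 2 or 3 or INZ replicate 1 or 3 (adjusted p = 0.0695 to 0.126), and for the cytokinesis motor gene KIF23 without any array but DMSO replicate 3 (adjusted p = 0.0835 to 0.129). For the aromatic amino acid transporter gene SLC16A10 it held without any array but DMSO replicate 1 (adjusted p = 0.0563 to 0.0789), for MFHAS1 without DMSO replicate 1 or 3 or INZ replicate 3 (adjusted p = 0.0642 to 0.0972) and for ADAMTSL4 without DMSO replicate 3 or INZ replicate 3 (adjusted p = 0.0589 and 0.0688). KIF23 was represented by 1 of its 2 features, and the brighter feature changed by 0.92 on the log2 scale (adjusted p = 0.266). DIP2A was represented by 1 of its 4 features, and the brightest changed by 0.41 (adjusted p = 0.655). With the features of each gene averaged, KIF23, DIP2A and ADAMTSL4 were not called (adjusted p = 0.0623, 0.114 and 0.0535).

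The largest fall of a named gene was that of PWWP3A, a chromatin protein with a PWWP domain. Its values were 9.62, 10.25 and 9.80 with DMSO and 6.24, 6.15 and 6.36 with INZ. The gene thus dropped to a dim level, below the median feature in all 3 INZ arrays, a log2 change of -3.64 (limma adjusted p = 0.000125). SLC38A10, a member of the SLC38 family of sodium-coupled amino acid transporters, stood at 9.78, 9.83 and 9.92 with DMSO and at 6.58, 6.10 and 6.51 with INZ, 10.9-fold lower (95% interval 7.45 to 15.97, limma adjusted p = 1.65e-05). Its INZ mean was also dim, so this fold is a ratio of the intensities as measured. A second feature of SLC38A10 changed by -1.69 and did not pass (adjusted p = 0.0724).

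CIRBP, the cold-inducible RNA-binding protein, stood at 11.44, 11.54 and 11.50 with DMSO and at 8.40, 7.90 and 8.36 with INZ. It was 9.68-fold lower (95% interval 6.23 to 15.03, limma adjusted p = 0.000101). MAD1L1, whose protein recruits MAD2 in the spindle checkpoint, stood at 11.60, 11.44 and 11.31 with DMSO and at 8.49, 8.22 and 7.84 with INZ. It was 9.63-fold lower (95% interval 6.47 to 14.3, limma adjusted p = 4.83e-05). In neither gene, nor in PWWP3A or SLC38A10, did an INZ array reach the range of the DMSO arrays.

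Falls of 6.90-fold to 9.43-fold were seen for a mixed set of genes. Among them were B3GALT6, a galactosyltransferase that builds the linker of glycosaminoglycan chains, PYCR3, a reductase of proline synthesis, BRD9, a bromodomain subunit of a SWI/SNF complex, ARFRP1, a small GTPase of the Golgi, BOK, a BCL2 relative that promotes apoptosis, and INPP5A, an inositol phosphate phosphatase. B3GALT6 fell by 3.24, PYCR3 fell by 3.20 and BRD9 fell by 2.90 on the log2 scale (limma adjusted p = 5.12e-05, 0.00553 and 7.15e-05). PCK2, the mitochondrial PEP carboxykinase, was among the brightest, at 13.38, 13.47 and 13.09 with DMSO and 10.68, 10.93 and 9.73 with INZ (limma adjusted p = 0.00052). NTSR1, a neurotensin receptor, fell by 3.16 on the log2 scale, and it was the 1 of the 15 largest falls whose call was not kept in every alternative, with adjusted p of 0.0853 to 0.149 whichever of the 6 p53-/- arrays was left out.

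**Figure D2:**
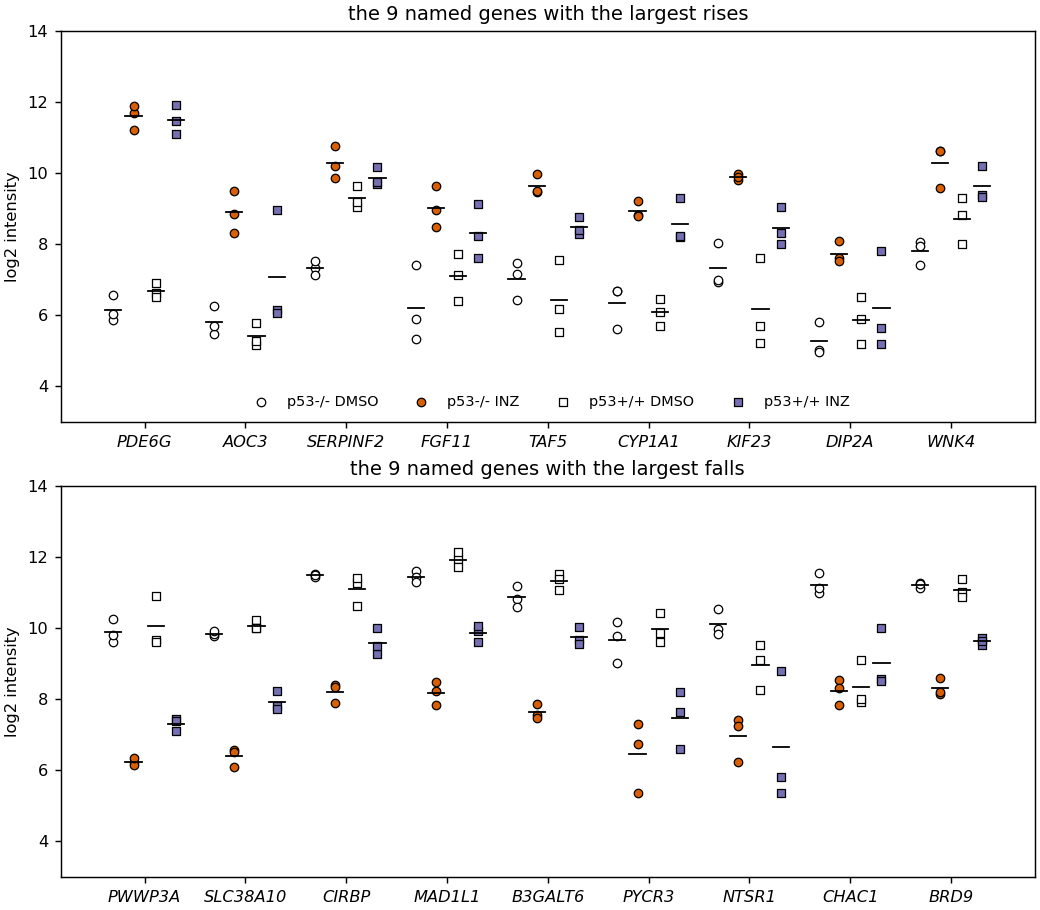
The y axis is log2 intensity, with 1 point per array, a bar at the mean of 3 arrays and, for each gene, the p53-/- DMSO, p53-/- INZ, p53+/+ DMSO and p53+/+ INZ groups from left to right. The p53-/- INZ arrays of PDE6G lie between 11.23 and 11.90, those of PWWP3A between 6.15 and 6.36, and CHAC1 is highest in the p53-/- DMSO arrays.

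Genes that ATF4 raises in the amino acid response moved down with INZ. Of 21 measured genes 8 fell, 13 were not called and none rose, and none of the 21 had a log2 change above 0. The median was -1.23 (-1.35 to -0.95 over the alternatives), beside -0.03 over all named genes, of which 1.16% fell. The list was chosen with earlier results of these data known and is given as a description. The count depended on the arrays kept: 4 to 6 of the genes fell when 1 p53-/- array was left out, with 4 without DMSO replicate 2 or INZ replicate 3 and 5 without DMSO replicate 1 or 3 or INZ replicate 2, and 11 fell in the fit on the 6 p53-/- arrays alone.

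CHAC1, an enzyme that degrades glutathione, stood at 11.56, 10.99 and 11.13 with DMSO and at 8.55, 7.84 and 8.32 with INZ. It was 7.94-fold lower (95% interval 4.21 to 14.98, limma adjusted p = 0.00304). The stress-induced chromatin protein gene NUPR1 went from 9.30, 9.32 and 8.93 to 6.89, 6.02 and 6.02, a 7.34-fold fall (limma adjusted p = 0.00263). In neither gene did the groups overlap. TRIB3, a pseudokinase that restrains AKT and ATF4, stood at 10.79, 10.67 and 10.90 with DMSO and at 8.36, 8.60 and 7.98 with INZ, 5.54-fold lower (limma adjusted p = 0.00127). ASNS, asparagine synthetase, whose promoter is shown above, stood at 11.71, 11.90 and 11.92 with DMSO and at 9.05, 10.36 and 9.43 with INZ, 4.69-fold lower (95% interval 2.88 to 7.61, limma adjusted p = 0.00352).

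The calls of these 4 genes were kept without any 1 array, whereas those of the other 4 were not. DDIT3, which encodes the transcription factor CHOP, fell by 2.41 on the log2 scale, a call lost without DMSO replicate 2 or 3 or INZ replicate 3 (limma adjusted p = 0.0518 to 0.072). CEBPB fell by 1.44 and PPP1R15A, a phosphatase subunit that restores translation, fell by 1.23, and their calls were lost without any p53-/- array but INZ replicate 1 and any but DMSO replicate 3, respectively (limma adjusted p = 0.0759 to 0.113 and 0.0702 to 0.146). DDIT4, an inhibitor of mTORC1, fell by 1.83, a call lost without any 1 of the 6 or without p53+/+ INZ replicate 1 (limma adjusted p = 0.0507 to 0.168). ATF4 itself changed by -1.23 and was not called (limma adjusted p = 0.209).

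In p53+/+ cells the same 21 genes had a median change of -0.03, with 1 rise, that of ATF3, and no fall. The genotypes began at different levels. Against the mean of the p53-/- DMSO arrays, the list's median lay at -1.58, -1.06 and -0.81 in the p53+/+ DMSO arrays, at -1.07, -0.94 and -0.69 in the p53+/+ INZ arrays and at -1.11, -1.10 and -1.03 in the p53-/- INZ arrays. With INZ the list's median in the p53-/- arrays lay within the range of the p53+/+ DMSO arrays. For the p53-/- INZ arrays at -1.11 and -1.10 this rested on p53+/+ DMSO replicate 1 alone, at -1.58. That array stands apart, as said above, and was also low for the median of the housekeeping genes, at -0.89. CHAC1 stood at 7.91 to 9.11 in p53+/+ DMSO and at 8.51 to 10.02 in p53+/+ INZ arrays, with 1 of the 3 p53-/- INZ arrays, at 7.84, below both, and its difference between the genotypes did not pass the test (adjusted p = 0.0951).

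In each group of genes around the same pathway 1 or 2 members were called, beside 1.16% of all named genes that fell and 0.396% that rose. Of 14 measured amino acid transporter genes 2 fell, SLC7A11 and SLC7A5, none rose, and the median was -0.66. SLC7A11, the cystine-glutamate antiporter, stood at 10.41, 9.93 and 10.59 with DMSO and at 7.72, 7.61 and 7.18 with INZ, 7.02-fold lower (95% interval 3.72 to 13.2, limma adjusted p = 0.0044). SLC7A5, which imports leucine, was 3.89-fold lower (limma adjusted p = 0.0155), a call lost without DMSO replicate 2 or any of the 3 INZ arrays (adjusted p = 0.0574 to 0.0878). Of 20 cytosolic tRNA synthetase genes CARS1 alone fell, by 1.16 on the log2 scale, with adjusted p of 0.0847 to 0.114 whichever of the 6 p53-/- arrays was left out. Of 15 genes of serine, glycine, proline and folate-linked synthesis, PYCR3 fell and 14 did not pass. Of 24 genes of ER chaperones and the unfolded protein response, EIF2AK3, which encodes the kinase PERK, rose by 1.58 on the log2 scale, 23 were not called and the median was -0.17. The EIF2AK3 call was lost whichever of the 6 p53-/- arrays was left out and without p53+/+ DMSO replicate 3 or INZ replicate 2 (adjusted p = 0.0518 to 0.178), and also with limma's trend or quantile normalization (adjusted p = 0.0695 and 0.0635).

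Lists of foreign compound, stress and lipid responses held 1 call or none each, beside 0.396% of all named genes that rose and 1.16% that fell. Of 9 measured genes of the aryl hydrocarbon receptor pathway CYP1A1 alone rose, and the median of the 9 was 0.29. CYP1B1, another classical target, changed by 0.30 on the log2 scale (limma adjusted p = 0.79) and TIPARP by 0.29 (adjusted p = 0.775). Of 21 genes of NRF2 and glutathione, none passed in either direction, 16 lay above 0, 5 had an unadjusted p under 0.05, all upward, and the median was 0.46. In the fit on the 6 p53-/- arrays alone, 4 of them rose. Of 15 heat shock genes and 24 genes of cholesterol synthesis none passed in limma (1 and 6 at an unadjusted p under 0.05), with medians of 0.17 and 0.14. SREBF1, the master factor of fatty acid synthesis, stood at 11.89, 11.73 and 11.51 with DMSO and at 10.12, 10.21 and 9.93 with INZ, 3.08-fold lower (limma adjusted p = 0.00542), and it was the 1 call among 9 genes of that pathway.

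Genes of the cell cycle lay mostly above 0, and 2 genes of mitosis and 1 of DNA replication rose, beside 0.396% of all named genes. Of 30 genes of mitosis and the spindle checkpoint 26 had a log2 change above 0, BUB1B and INCENP rose, MAD1L1 fell, and the median was 0.34 (0.69 in p53+/+ cells). Of 28 genes of DNA replication 23 lay above 0, FEN1, the flap endonuclease, rose, and the median was 0.53 (0.75 in p53+/+ cells). The median of 12 housekeeping genes was 0.22 in p53-/- cells and 0.56 in p53+/+ cells. FEN1 stood at 11.99, 11.25 and 11.66 with DMSO and at 13.17, 13.11 and 13.11 with INZ, 2.81-fold higher (limma adjusted p = 0.031). The calls of BUB1B, INCENP and FEN1 were each lost whichever of the 6 p53-/- arrays was left out (adjusted p = 0.0536 to 0.149, 0.0673 to 0.148 and 0.0589 to 0.161), and that of BUB1B also with limma's trend (adjusted p = 0.0531). The medians stayed above 0 under all alternatives, at 0.19 to 0.51 for mitosis and 0.34 to 0.57 for replication. CCND1, cyclin D1, fell 2.39-fold (limma adjusted p = 0.038) as the 1 call among 11 Wnt targets, and this call too was lost whichever of the 6 arrays was left out (adjusted p = 0.0925 to 0.186).

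Of 30 p53 target genes, AIFM2 rose, GDF15 fell and 28 did not pass, at a median of 0.03 in p53-/- cells against 1.66 in p53+/+ cells, where 13 rose. The list's median in the p53-/- INZ arrays was 0.10, -0.03 and 0.24 against the mean of the DMSO arrays. GDF15, a stress cytokine, stood at 12.92, 13.18 and 12.99 with DMSO and at 11.23, 10.90 and 11.12 with INZ, 3.86-fold lower (95% interval 2.59 to 5.75, limma adjusted p = 0.00252). In p53+/+ cells its log2 change was 1.44, and the 2 effects differed past the threshold (3.39, adjusted p = 0.00322). CDKN1A, the p21 inhibitor of cyclin-dependent kinases, changed by -0.88 on feature NM_000389 and by -0.47 on feature NM_078467 (limma adjusted p = 0.115 and 0.525). The 3 features of BAX, a pore-forming pro-apoptotic protein, changed by 0.97, 0.84 and 0.49 on the log2 scale, with overlapping groups (limma adjusted p = 0.448, 0.562 and 0.692). TCEA3, the elongation factor TFIIS.h, changed by 0.60 (95% interval -0.17 to 1.37, limma adjusted p = 0.507), from 7.41, 8.17 and 7.24 with DMSO to 8.72, 8.27 and 7.64 with INZ. SIRT1 and IMPDH2, whose proteins INZ has been described to act on, changed by -0.15 and -0.45 on the log2 scale (limma adjusted p = 0.88 and 0.517).

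The remaining lists held 1 call or none each. BOK fell among 16 genes of the BCL2 family, TAF1D, a subunit of the RNA polymerase I factor SL1, fell among 30 genes of ribosome biogenesis, and ABCC3, an exporter of organic anions, fell among 18 ABC transporters. The TAF1D call was lost without any p53-/- array but INZ replicate 2 (limma adjusted p = 0.0736 to 0.13) and that of ABCC3 without any 1 of the 6, without p53+/+ DMSO replicate 2 or INZ replicate 1 or 2 (limma adjusted p = 0.0518 to 0.215) and with the replicate block (adjusted p = 0.0574). Of 30 cytosolic ribosomal protein genes, 33 respiratory chain genes, 25 proteasome genes and 18 glycolysis genes none passed in limma (2, 2, 0 and 1 at an unadjusted p under 0.05). Their medians were -0.29, -0.12, 0.15 and 0.19, and 6 of the 30 ribosomal protein genes lay above 0. INZ replicate 3 was the lowest p53-/- INZ array in the first 3 of these lists. Against the mean of the p53-/- DMSO arrays, the ribosomal protein median was -0.24, -0.03 and -0.60 in INZ replicates 1 to 3. That of the respiratory chain was 0.03, 0.05 and -0.41, and that of the proteasome 0.17, 0.28 and -0.27. Among 12 housekeeping genes none passed, 3 had an unadjusted p under 0.05, and the median was 0.22, so a list median of that size was also seen in genes picked for stable expression.

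**Figure D3:**
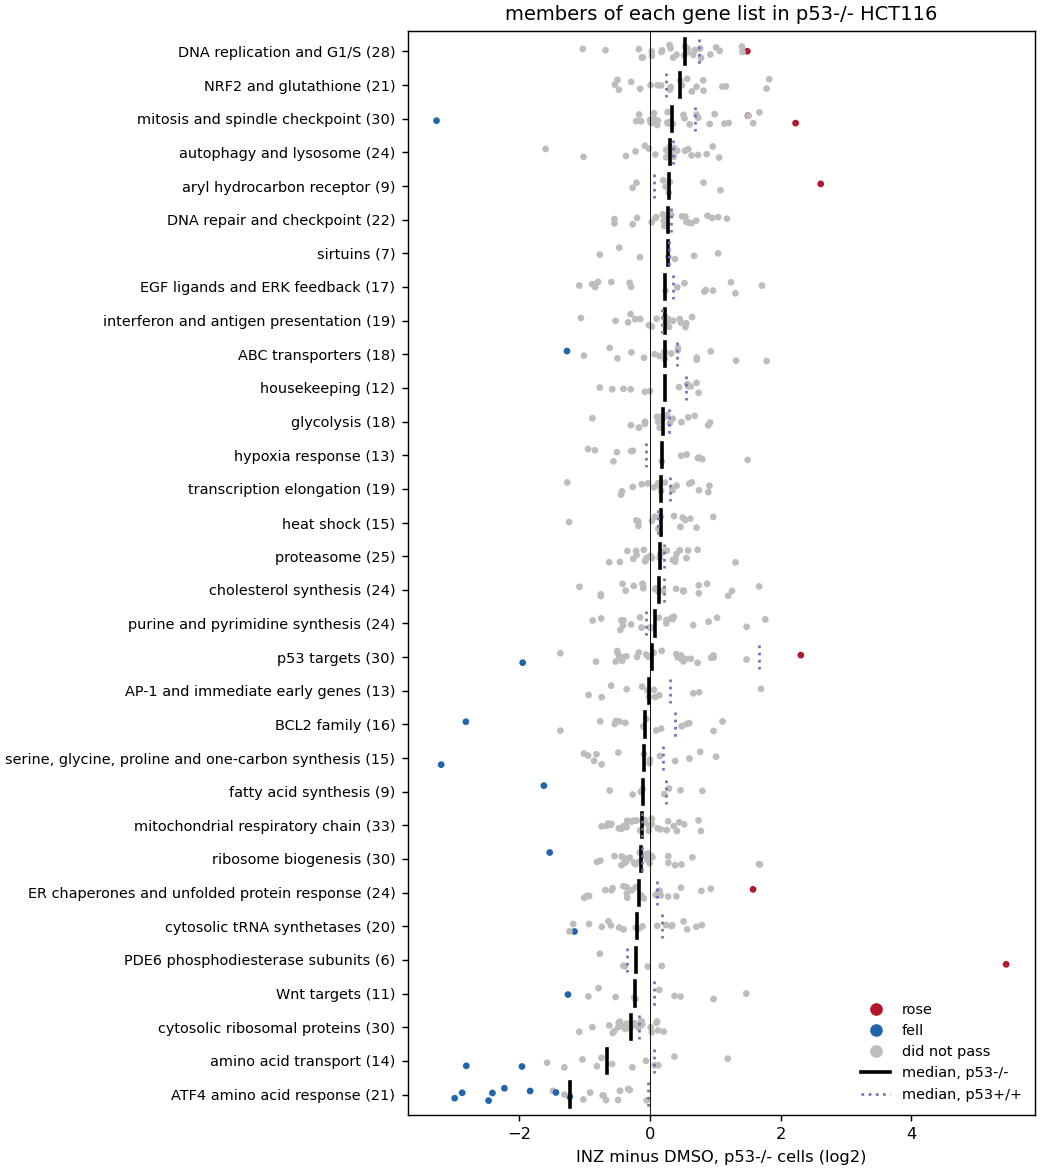
The x axis is the log2 difference between INZ and DMSO in p53-/- cells, with 1 point per measured gene, 1 row per list and the number of genes in brackets. The solid bar is the median in p53-/- cells and the dotted bar that in p53+/+ cells. The ATF4 list is the lowest, at -1.23 against -0.03 in p53+/+ cells, and the p53 targets lie at 0.03 against 1.66.

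The genes that fell were not spread evenly along the chromosomes, a pattern noticed after the values were seen and given without a test. Counting protein-coding genes inward from the nearest of 41 chromosome ends, 104 of the 199 genes that fell (52.3%) were among the outermost 100, against 3356 of 17146 named genes (19.6%) and 14 of the 68 genes that rose (20.6%). Within the outermost 50 were 34.7% of the genes that fell and 9.50% of all. The median place was 89 genes from an end for those that fell, 270 for those that rose and 254 for all. Of the 15 largest falls 11 lay among the outermost 100.

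Read the other way, 4.20% of the genes up to place 25 fell, 4.27% from there to place 50, 2.03% from there to 100 and 0.873% from there to 200. Farther in, 0.613% fell up to place 400 and 0.65% beyond it. The share that rose showed no such order, at 0.254% to 0.593% in these 6 bins. In p53+/+ cells the shares that fell were lower but in a like order, 1.40%, 1.30%, 0.695%, 0.262%, 0.145% and 0.217%. The p53+/+ cells share neither their INZ nor their DMSO arrays with this comparison. Their calls came from the same limma fit, however, with the same spread for each feature. They are therefore not independent of the calls in p53-/- cells. Gene level also moved with the place, since the median log2 level with DMSO was 7.03 in the outermost 100 and 6.61 farther in. Among genes above the median feature, 5.40% fell in the outermost 100 and 1.24% farther in, and across the alternatives these shares ran from 2.25% to 10.0% and from 0.419% to 3.57%. The median GC content of the promoter window was 66.8% in the outermost 100 and 62% farther in, over the 80.2% of named genes with a promoter sequence, and its part in the result was not tested. A check on the genes that fell is void, because only 79.4% of them had a promoter sequence.

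**Figure D4:**
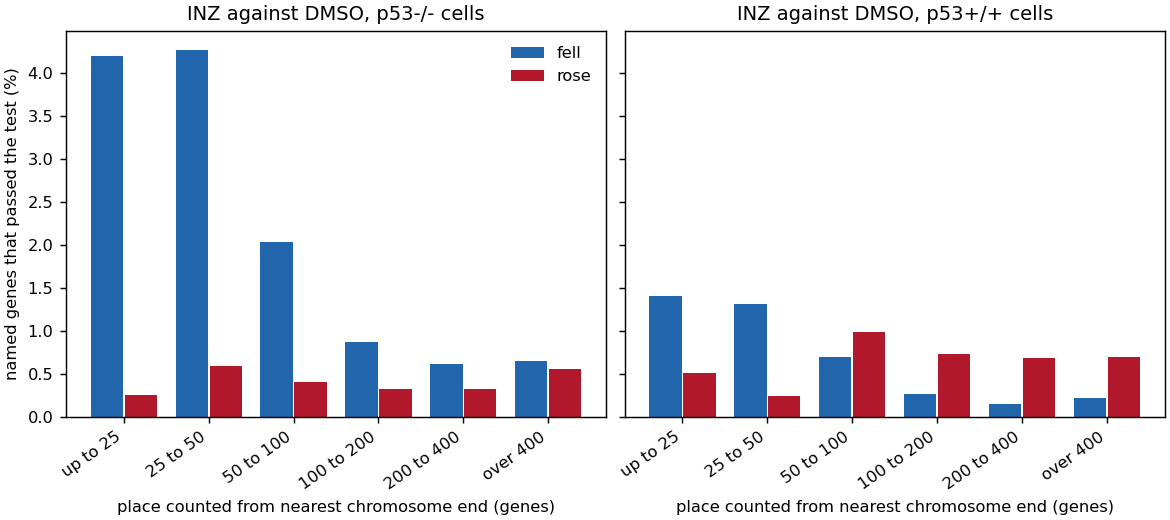
The y axis is the percent of named genes that passed the test and the x axis the place of the gene counted from the nearest chromosome end. The left panel shows p53-/- cells and the right panel p53+/+ cells, with falls in blue and rises in red. In p53-/- cells the falls drop from 4.20% at the outermost 25 genes to 0.65% beyond 400, and the rises are at most 0.593%.

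The ends differed among themselves. The first end of chromosome 16 had the most falls, 15 of 83 measured genes with a median of -0.39, followed by the last end of chromosome 17 with 10 of 84 and by the first end of chromosome 1 and the last end of chromosome 9 with 9 each. At 15 of the 41 ends no gene fell. On chromosome 16 the genes that fell included RPUSD1, WDR90, HAGHL and ANTKMT, at places 47, 34, 44 and 42, with AXIN1, a scaffold of the beta-catenin destruction complex, and NPRL3, a subunit of the GATOR1 complex that restrains mTORC1. On chromosome 17 they included RPTOR, the mTORC1 scaffold raptor, SGSH, a lysosomal sulfatase, SLC38A10, FAAP100 and MRPL12.

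PDE6G lies in that same stretch of chromosome 17, between genes that fell. FAAP100 on its inner side changed by -1.74, and MRPL12 and ARL16 on its outer side by -1.91 and -1.94, all past the test (limma adjusted p = 0.00636, 0.0016 and 0.00217). Its direct neighbours TSPAN10 and OXLD1 changed by -1.31 and -1.46 and did not pass (adjusted p = 0.169 and 0.0582), and NPLOC4 and HGS changed by 0.17 and -0.08. Elsewhere on the same chromosome, AOC3 stood next to AOC2, which rose by 1.17 (limma adjusted p = 0.0413), and 6 places from WNK4. The strand read by the labelled cDNA is not given in the sources used here, so overlapping genes cannot be told apart.

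**Figure D5:**
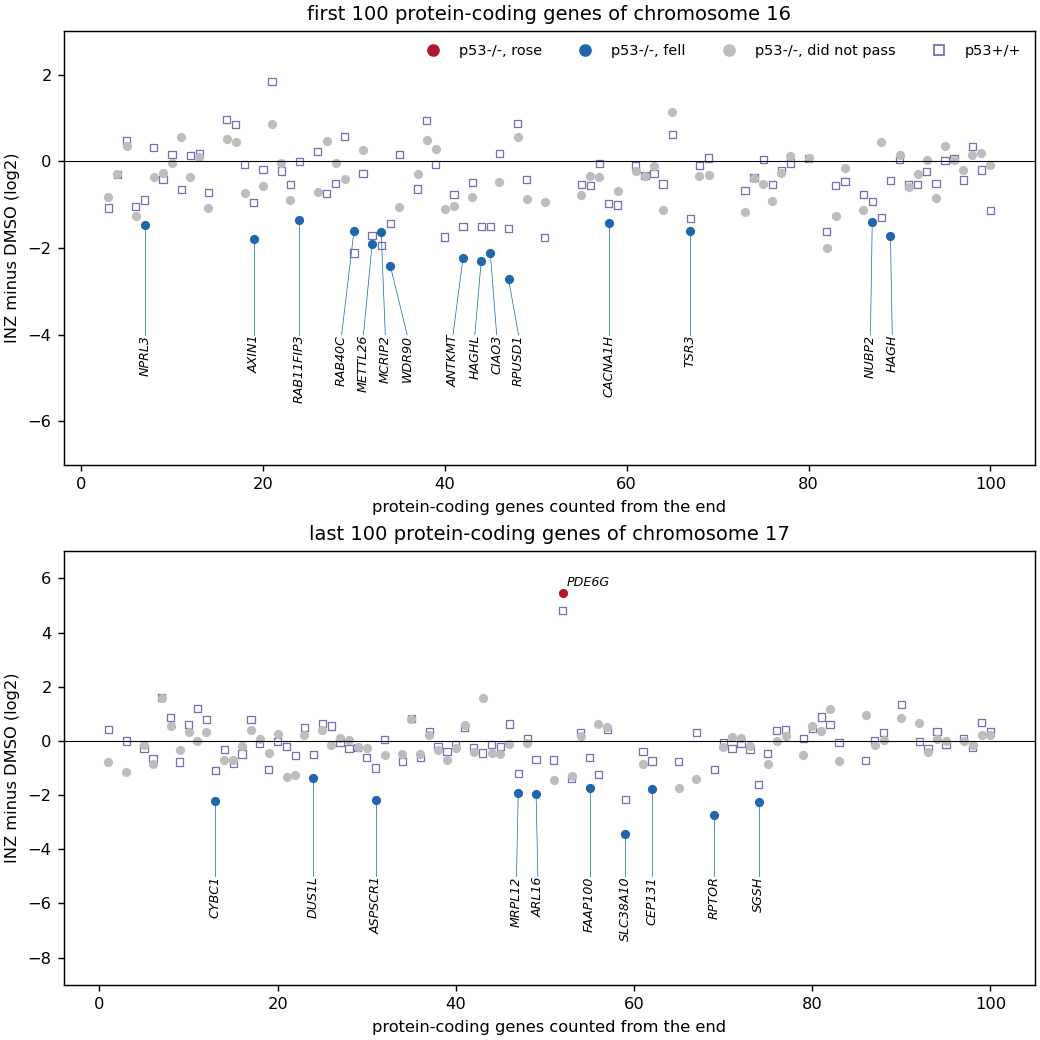
Each panel shows the log2 difference between INZ and DMSO against the place of a gene counted from the end of the chromosome, with filled points for p53-/- and open squares for p53+/+ cells. The genes that fell are named and lie at -1.36 or lower in both panels, and PDE6G stands alone at 5.45.

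Most of the changes had the same direction in p53+/+ cells. Of the 199 named genes that fell, 187 also had a negative change in p53+/+ cells, with a median of -0.96 against -1.76, and 43 fell in both. Of the 68 that rose, 66 had the same sign, with a median of 0.87 against 1.68, and 15 rose in both. Since the genes were chosen by their change in p53-/- cells, the medians are a description and not a test of whether the effect was smaller in p53+/+ cells. The difference of the INZ effect between the genotypes passed the test for 8 features (0.0178%), of which GDF15 was the 1 named gene called in p53-/- cells. In p53+/+ cells 119 named genes rose (0.692%) and 61 fell (0.355%).

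Several calls rest on 1 of several features. Of 288 genes with a called feature 42 had more than 1 feature, and in 5 of these all features were called. In 30 the others had the same sign without passing, and in 7 another feature had the opposite sign. Of the 666 called features 191 kept their call in all 20 alternatives, 18 that rose and 173 that fell.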

How the data were processed

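RNA of HCT116 p53+/+ and p53-/- cells, given 4 μM INZ or DMSO for 18 hours, was measured on 12 NimbleGen arrays with 1 colour, 3 per group. The deposited table holds, per the labels, RMA values, that is, intensity as the authors left it, not in log form (16.2 to 61942), after background correction, normalization between arrays and summary of the probes of a feature. Settings of RMA, annotation build and strand: not given in the sources used here. All values were taken to log2 with no pseudocount. No 2 columns were identical.

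Features were named through the platform annotation (18188) or a RefSeq accession (678), which leaves 26167 of 45033 tested but unnamed. Each of 17185 genes was represented by its brightest feature over the 12 arrays, except among the largest changes, where the most extreme called feature was used. Places along chromosomes came from the order of RefSeq protein-coding genes (GRCh38.p14), on short-arm ends only where protein-coding genes are placed, and promoters from RefSeq of the same build.

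limma 3.58.1 in R 4.3.3 was run on all 12 arrays with a mean for each group and without covariate, trend or block. Benjamini-Hochberg adjusted p-values over the 45033 features were called under 0.05, and intervals cover 95%. The methods of the study state no test. Recovery of known changes by the same code was checked in a self-test, with 50 changes of each size on the log2 scale. It recovered 0 of the changes of 0.5, 2 of those of 1, 30 of those of 2 and 46 of those of 3. The self-test used artificial values and also gave 6 false calls. It missed part of the changes of every size tried. A change of any of these sizes that did not pass is thus not shown to be absent.

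Named genes were the 15 largest rises and 15 largest falls among called features whose groups do not overlap, in each list the 4 members of smallest p at most, the study's genes, and genes whose change differed between genotypes. Genes named by chromosome place and the other called list members were chosen after their values were seen. The comparison, the members and the lists were chosen with earlier results of these data known. The alternatives were other sets of arrays, another variance, limma's trend, removal of dim features, quantile or median scaling, a replicate block, a 2-fold minimum, averaging the features of each gene and leaving out each array. The check of the targeted gene is not reported here.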

Additional observations from a re-analysis of the deposited data

Results flagged for a closer look

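The effect of INZ in p53-/- cells differed from that in p53+/+ cells for 5 named features of 4 genes by limma's test of the difference itself, each with the p53+/+ change higher. Only GDF15 among them was called in p53-/- cells. Its difference was 3.39 on the log2 scale (adjusted p = 0.00322), made of a change of 1.44 in p53+/+ and of -1.95 in p53-/- cells, and it passed in all 19 alternatives (adjusted p up to 0.0213). The p53+/+ change alone was not past the threshold with a variance per genotype, nor when replicate 1 or 2 of either p53+/+ group was left out (adjusted p = 0.0511 to 0.106). The groups of GDF15 do not overlap in either genotype, and they move apart in opposite directions.

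ATF3, a stress-induced transcription factor, differed by 3.38 (adjusted p = 0.00321), rising by 2.93 on the log2 scale with p53 and changing by -0.46 without it. TP53I3, a p53 target that encodes a quinone oxidoreductase, differed by 4.37 on feature NM_004881 and 4.47 on feature NM_147184 (adjusted p = 0.000842 and 0.000982), with changes in p53-/- cells of -0.24 and -0.43. These 3 differences passed in all 19 alternatives. CDKN1A on feature NM_000389 differed by 2.44 (adjusted p = 0.0465), with changes of 1.57 and -0.88, and did not pass in 15 of the 19, without any 1 of the 12 arrays among them (2.29 to 2.57, adjusted p up to 0.207). The other CDKN1A feature, NM_078467, gave 2.32 (adjusted p = 0.126).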

How the results depend on the processing

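No called feature named in the text changed sign under any alternative, while the number of calls moved, and the medians of 16 of the 37 lists changed sign in at least 1 alternative. For INZ against DMSO in p53-/- cells, 666 features were called in the main setting, 2705 with only the 6 p53-/- arrays (1679 rose and 1026 fell), 2525 without p53+/+ DMSO replicate 1 and p53+/+ INZ replicate 3 together (1442 and 1083) and 2158 with a variance per genotype (1093 and 1065). In these 3 fits the p53-/- arrays, which spread less, set more of the error. Leaving out 1 array gave 229 to 1313 calls, 33 to 646 rises and 196 to 667 falls. Dim features filtered, limma with trend, quantile normalization and median centring gave 877, 706, 628 and 685 calls, and a 2-fold minimum removed none of the 666. Rises made up 32.6% of calls in the main setting and 62.1% with only the 6 p53-/- arrays. The difference between genotypes had 8 calls, 15 with a trend and 7 to 10 with 1 array left out. The replicate block gave 342 rises and 470 falls. The correlations between the deviations of same-numbered DMSO and INZ arrays of p53-/- cells were 0.0331, -0.122 and -0.135. These are deviations from means of only 3 arrays, so they cannot decide whether the replicate numbers pair the samples. The number of arrays, 3 per group, limits the precision, and the table holds no detection calls for dim features. The cause of the other shifts was not tested.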

Other observations

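Lists not described above held no call in p53-/- cells. Among them were 22 genes of DNA repair and checkpoints (median log2 change 0.28, 4 at an unadjusted p under 0.05), 24 of purine and pyrimidine synthesis (0.08, 5), 24 of autophagy and lysosomes (0.31, 4), 13 of the hypoxia response (0.18, 3), 17 of EGF ligands and ERK feedback (0.24, 6), 13 of AP-1 and immediate early genes (-0.02, 2), 19 of interferon and antigen presentation (0.23, 1), 19 of transcription elongation (0.17, 1) and 7 sirtuins (0.28, 1). No marker of epithelium, mesenchyme, leukocytes or endothelium was called (36 genes, 2 at an unadjusted p under 0.05). The median of the leukocyte markers, nearly all dim, ran from -0.24 to 1.88 over the alternatives. The latter came with dim features filtered and equals the largest change of any 1 marker in the list. Of the largest falls without a gene name, BC009964 fell by 3.74 and BC000403 fell by 3.65 on the log2 scale.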
